A study of Mus musculus with 24 samples.

Results

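Transcripts of type 2 immunity were examined in the terminal ileum, the last segment of the small intestine, of mice that had been given an antibiotic early in life. They were the 10 genes Il4, Il5, Il9, Il13, Il25, Tslp, Crlf2, Il4ra, Gata3 and Gpr44, chosen by name, and all 10 were among the 547 genes in the table of a NanoString immunology panel. The assay hybridizes a colour-coded probe pair to each transcript and counts the molecules. All mice were C57BL/6 animals sampled at week 7. Control mice (n = 7, 4 male and 3 female) drank plain water, PAT1 mice (n = 7, 4 male and 3 female) had received 1 course of the macrolide tylosin through the milk of the treated dam, and PAT3 mice (n = 10, 4 male and 6 female) had received that course and then others, 3 in all. PAT stands for pulsed antibiotic treatment. Litters were assigned to a group as a whole and mice were caged by sex and group, so that litter and cage cannot be told apart from treatment. Group sizes given by the study for PAT1 and PAT3 differ from those of the labels, which were followed here, and the bearing of this on the values was not tested.

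Type 2 immunity is the arm of the immune system that answers parasites and underlies allergy. At mucosal surfaces, epithelial cells release alarmins, among them Tslp and IL-25, which act on group 2 innate lymphoid cells (ILC2) and T helper 2 (Th2) cells, and these cells secrete IL-4, IL-5, IL-9 and IL-13. Gata3 is the transcription factor that defines both cell types, although other T cells and innate lymphoid cells also express it. In the small intestine the main source of IL-25 is the tuft cell, and IL-13 acts back on epithelial stem cells to increase tuft and goblet cells.

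Il4, Il13 and Il5 lie side by side on mouse chromosome 11, with Rad50 between the last pair, and Gata3 acts at this locus. Their promoters are shown because these genes are classical targets of Gata3, and they were chosen with their values known. No member, Gata3 included, passed the threshold between PAT3 and Control, and regulation by Gata3 was not tested. Each line gives 150 bases upstream of the start of the gene (RefSeq, assembly GRCm38.p6, 5′ to 3′ on the strand of the gene), and capitals mark the letters that GATA factors bind, on either strand. These were searched as AGATAA or the same with a final G (AGATAG), and with T in first place as TGATAA or, with both changes, TGATAG.
Il4 (chr11:53618666-53618815, minus strand): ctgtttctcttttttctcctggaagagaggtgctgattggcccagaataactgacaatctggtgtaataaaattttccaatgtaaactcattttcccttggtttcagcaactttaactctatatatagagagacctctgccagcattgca
Il13 (chr11:53634703-53634852, minus strand): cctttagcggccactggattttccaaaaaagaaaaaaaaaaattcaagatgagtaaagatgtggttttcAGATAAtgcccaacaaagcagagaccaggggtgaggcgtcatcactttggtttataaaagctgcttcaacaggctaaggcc
Il5 (chr11:53720644-53720793, plus strand): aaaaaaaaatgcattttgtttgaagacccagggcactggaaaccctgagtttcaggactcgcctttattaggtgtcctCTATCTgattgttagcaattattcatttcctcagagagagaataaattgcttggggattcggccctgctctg
The window of Il13 held AGATAA on its own strand, 81 bases before the start, and that of Il5 held AGATAG on the opposite strand, 72 bases before the start. The window of Il4 held none of the 4 sequences. Of all 32851 promoter windows of this length, 16.0% held at least 1 of them, so that a match is a description of letters and not of binding.

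The deposited values are log2 counts after division by 1 size factor per sample, and the counts behind them could be recovered as whole numbers. Totals ranged from 171671 to 782392 counts per sample with a median of 580162. The shallowest samples were PAT1 replicate 1 (171671 counts), PAT3 replicate 7 (265500) and PAT1 replicate 3 (294135). Mean log2 totals differed from Control by -0.46 in PAT1 and -0.18 in PAT3, and PAT3 differed from PAT1 by 0.29. No difference passed the threshold (two-sided exact permutation tests on the log2 scale, adjusted p = 0.362 for each of 3 pairs), which does not show that depth was equal. Relative to Control, the median log2 value of all genes was shifted by -0.14 in PAT1 and -0.19 in PAT3, and every change given here is on the scale of the size factors as deposited. The 5 mature enterocyte markers had a mean log2 value of 12.81 in Control.

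The cytokine transcripts were scarce in every group. Over the 24 samples, mean recovered counts were 10 for Il4, 3.71 for Il5, 8.12 for Il9, 16.2 for Il13 and 8.75 for Il25. All 5 were below 20 counts, the level under which a transcript was regarded as near background. The other members were above it, with means of 21.9 for Gpr44, 35.6 for Tslp, 98.8 for Gata3, 396 for Crlf2 and 1420 for Il4ra. Gpr44 lay close to that level, with a mean of 19.3 counts in PAT1. It had under 20 counts in 2 Control, 3 PAT1 and 3 PAT3 samples. Of all 547 genes, 109 (19.9%) had a mean under 20 counts. No background probes were analysed here, so the rule is one of counting precision and does not show whether such a transcript was present. The median spread within groups of the 5 scarce members was 0.59 on the log2 scale, close to the 0.583 of all scarce genes. The other 5 members had a median spread of 0.286, against 0.362 for all genes of 20 or more counts.

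**Figure D1:**
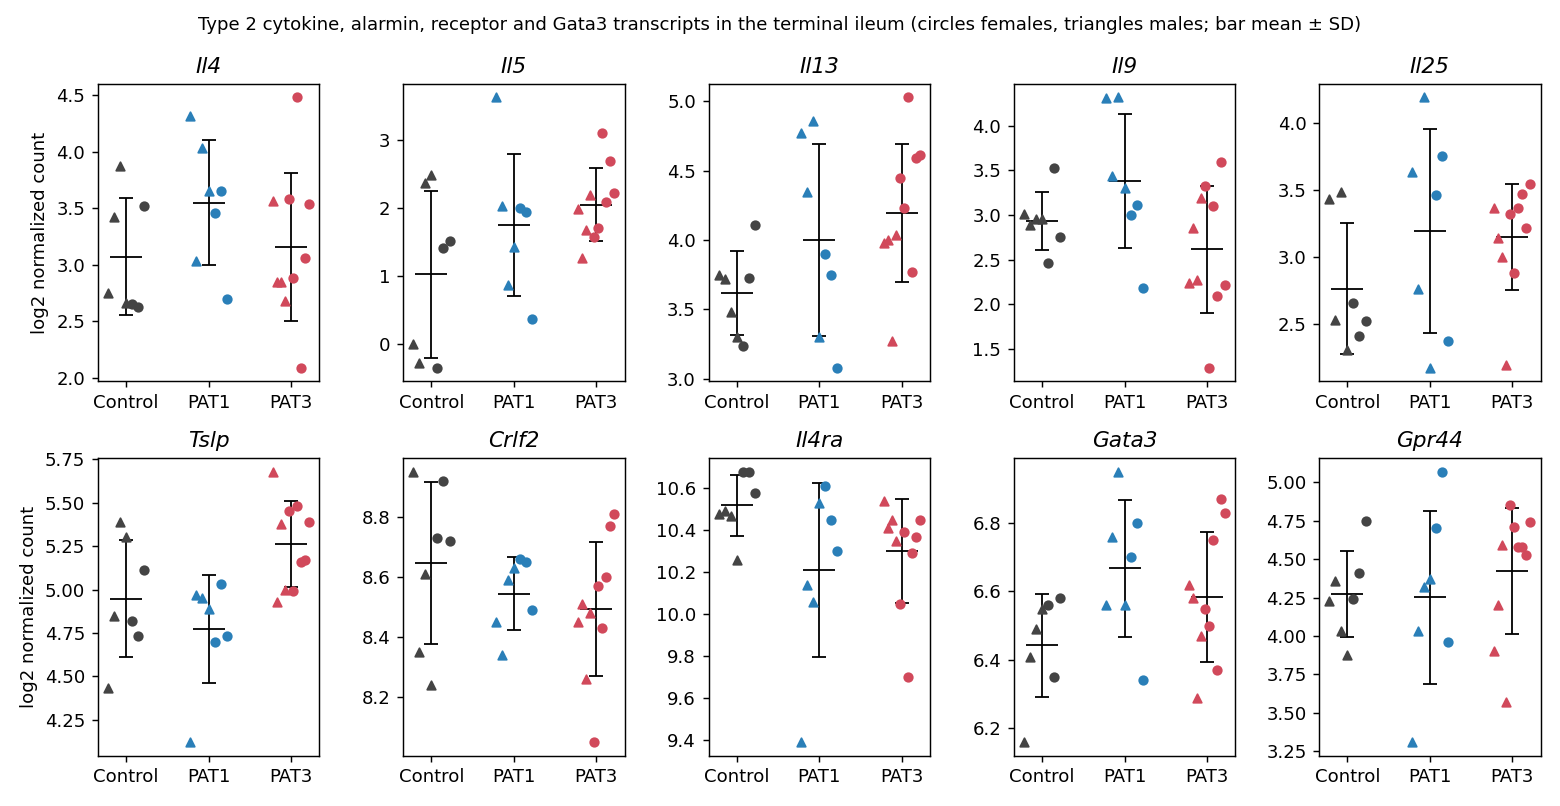
Log2 normalized counts of the 10 transcripts in Control (n = 7), PAT1 (n = 7) and PAT3 (n = 10) mice, with circles for females, triangles for males and bars for the mean and SD. Each panel has its own axis, and the values of the groups overlapped for all 10 genes.

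To see whether any of these transcripts differed among the regimens, the 3 groups were compared by limma's moderated F-test, with Benjamini-Hochberg adjustment over all genes. Tslp alone of the 10 members was past the threshold (p = 0.00991, adjusted p = 0.0332), and no other member had an unadjusted p under 0.05. Among all 547 genes, 34.6% were called and 47.3% had an unadjusted p under 0.05, so that the share of members was below the background. Scarce genes, however, made up 5 of the 10 members against 19.9% of all genes. Their median spread was also wider, at 0.583 against 0.362 for genes of 20 or more counts. The bearing of this on the share was not tested. In bulk tissue, fewer cells of a type and less RNA per cell cannot be told apart.

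The alarmin Tslp ranked from PAT1 through Control to PAT3. Its log2 values were 4.12, 4.70, 4.73, 4.89, 4.95, 4.97 and 5.03 in PAT1 mice and 4.43, 4.73, 4.82, 4.85, 5.11, 5.30 and 5.39 in Control mice. In PAT3 mice the lowest value was 4.93, the median 5.28 and the highest 5.68. The lowest PAT3 value lay above 4 of the 7 PAT1 values, while those of Control spread over most of the range. PAT1 averaged 4.77 ± 0.31 (SD, n = 7) and Control 4.95 ± 0.34 (SD, n = 7), and the mean of PAT3 reached 5.26 ± 0.25 (SD, n = 10). By limma, PAT3 was higher than PAT1 by 0.49 on the log2 scale (SE 0.15, 95% confidence interval 0.18 to 0.81), a 1.41-fold difference, and all 10 PAT3 mice were above the PAT1 mean. The adjusted p of 0.0562 did not pass the threshold. Neither step in the order did either, with 0.32 between PAT3 and Control (interval 0.00 to 0.63, adjusted p = 0.112) and -0.18 between PAT1 and Control (interval -0.52 to 0.16, adjusted p = 0.507).

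The Tslp result rested on few counts and on single mice. PAT1 replicate 1, the shallowest sample, held 7 counts of Tslp and the lowest value of all 24 mice. Without it the F-test gave an adjusted p of 0.054, and without PAT3 replicate 1, 3, 5 or 10 it gave 0.0653, 0.0546, 0.051 and 0.0512. On the log2 scale PAT3 was above PAT1 by 0.45 with the mean of the T cell markers as a covariate. With that of the B cell markers the difference was 0.49, as without either. Control and PAT3 did not overlap in the T cell marker mean, so that this covariate cannot be told apart from treatment. For these fits the F-test gave an adjusted p of 0.23 (T cell) and 0.104 (B cell). Conversely, the difference between PAT3 and PAT1 passed the threshold without Control replicate 1 (adjusted p = 0.048), PAT3 replicate 7 (0.0383) or PAT1 replicate 6 (0.0268).

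Crlf2 encodes the specific chain of the Tslp receptor, which pairs with the IL-7 receptor chain. Its log2 values ran from 8.24 to 8.95 (median 8.72) in Control, from 8.34 to 8.66 (median 8.59) in PAT1 and from 8.05 to 8.81 (median 8.50) in PAT3. All of the PAT1 values lay inside the Control range. The change against Control was -0.10 (SE 0.13, interval -0.37 to 0.17, adjusted p = 0.646) in PAT1 and -0.15 (SE 0.12, interval -0.41 to 0.10, adjusted p = 0.35) in PAT3, and re-centring on the median turned both signs. Il7r, the partner chain, was not called in either group.

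In PAT1, limma called 0 of the 10 members against Control, and 0 had an unadjusted p under 0.05. The methods' test, which is aov with TukeyHSD, also called 0. Among all genes, 18.5% were called and 28.7% had an unadjusted p under 0.05. Changes of the members ran from -0.31 for Il4ra to 0.73 for Il5 with a median of 0.31, against a median of 0.01 over all genes. All 5 scarce cytokines had means above Control, from 0.38 to 0.73, and 61 of the 109 scarce genes of the panel did so.

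Summed raw counts of these cytokines, which are not corrected for depth, differed little between Control and PAT1. Summed over the 7 mice of each group, Il4 gave 71 counts in both Control and PAT1, Il5 gave 22 in both and Il9 gave 62 in both. Il13 gave 98 counts in Control and 95 in PAT1, and Il25 gave 55 and 58. The size factors, by which counts are divided, summed to less in PAT1. Summed counts over summed size factors were thus higher in PAT1 than in Control. They were 8.89 in Control and 11.1 in PAT1 for Il4, 7.76 and 9.71 for Il9, and 6.88 and 9.08 for Il25. Those of Il5 and Il13 are given below. PAT1 replicates 1 and 3, the shallow samples, held the highest normalized values of their group for Il4 (4.31 and 4.03), Il9 (4.31 and 4.32) and Il13 (4.77 and 4.86), from 8 and 9, 8 and 11, and 11 and 16 counts. For Il5 the same replicates were first and sixth of 7 (3.63 and 0.86, from 5 and 1 counts), and for Il25 the third and the first (3.63 and 4.19, from 5 and 10 counts). With the size factor as a covariate, the PAT1 changes were 0.41 for Il5, 0.151 for Il4, 0.155 for Il25, 0.08 for Il9 and -0.03 for Il13. Each was smaller than without it. The cause of the PAT1 changes was not tested.

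**Figure D2:**
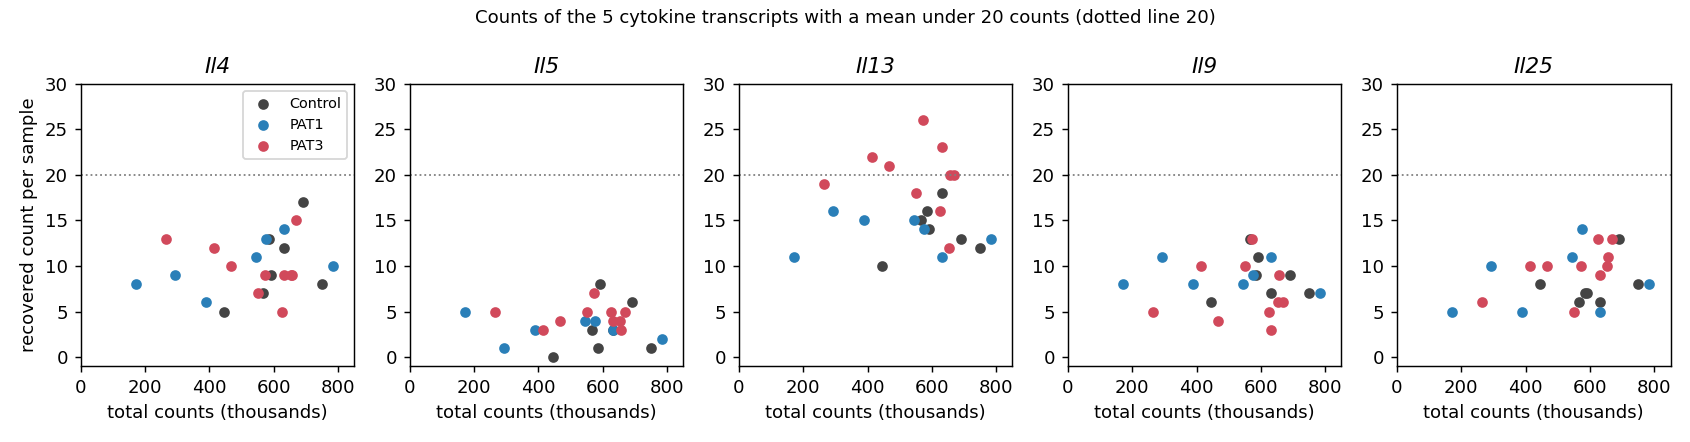
Recovered count per sample (vertical axis) of the 5 scarce cytokine transcripts against the total counts of the sample (horizontal axis), coloured by group, with a dotted line at 20 counts. Il13 reached 20 recovered counts or more in PAT3 samples only, with up to 26. The other 4 transcripts stayed below 20 in all 24 samples. These counts are not corrected for depth. After division by the size factor, Il13 was also above 20 in PAT1 replicates 1, 2 and 3 (27.3, 20.4 and 29.1).

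In PAT3, limma called 0 of the 10 members against Control, where 31.8% of all genes were called. The methods' test also called 0. At an unadjusted p under 0.05 there were 3 members, Il5, Il13 and Tslp, all higher in PAT3, against 43.7% of all genes. Changes ran from -0.32 for Il9 to 1.03 for Il5 with a median of 0.15, and the median over all genes was 0.03.

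Il5, the growth and survival factor of eosinophils, had the largest change and the fewest counts. Control mice held 0, 1, 6, 8, 1, 3 and 3 counts (replicates 1 to 7), PAT1 mice held 5, 3, 1, 3, 4, 4 and 2, and PAT3 mice held between 3 and 7. Every PAT3 mouse had at least 3 counts, as did 4 of 7 Control mice and 5 of 7 PAT1 mice. Summed counts divided by summed size factors gave 2.75 in Control (exact Poisson 95% interval 1.73 to 4.17), 3.45 in PAT1 (2.16 to 5.22) and 4.17 in PAT3 (3.04 to 5.58), and these intervals, which cover counting error only, overlapped. On the log2 scale the means were 1.02 ± 1.22 (SD, n = 7), 1.75 ± 1.04 (SD, n = 7) and 2.05 ± 0.54 (SD, n = 10). PAT3 was higher than Control by 1.03 (SE 0.43, interval 0.15 to 1.90), above the Control mean in 10 of 10 mice, with an adjusted p of 0.0654.

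The lowest Il5 values have no order, since Control replicate 1, with no count, was listed at 0 while 1 count gave -0.28 and -0.35 in Control replicates 2 and 5. The change depended on how such values were treated. With 8 normalized counts added before the logarithm it was 0.25 (adjusted p = 0.192). It passed the threshold without Control replicate 3 (adjusted p = 0.0304), Control replicate 4 (0.0257) or PAT1 replicate 1 (0.0405). In PAT1 the change was 0.73 (SE 0.46, interval -0.22 to 1.68, adjusted p = 0.32).

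Il13, the cytokine that drives goblet and tuft cell expansion, had the most counts of the 5. Control mice held 10 to 18 counts with a median of 14, PAT1 mice 11 to 16 with a median of 14, and PAT3 mice 12 to 26 with a median of 20. On the log2 scale Control ran from 3.24 to 4.11 (median 3.72), PAT1 from 3.08 to 4.86 (median 3.90) and PAT3 from 3.27 to 5.03 (median 4.13). Raw counts of PAT3 mice reached beyond those of both other groups. After division by the size factor, the highest values were 17.3 in Control, 29.1 in PAT1 and 32.6 in PAT3. The lowest PAT3 mouse lay inside the Control range. Summed counts over size factors were 12.3 in Control (exact Poisson interval 9.959 to 14.95), 14.9 in PAT1 (12.04 to 18.19) and 18.3 in PAT3 (15.8 to 21.0), and the PAT3 and Control intervals, which again cover counting error only, did not overlap.

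The PAT3 change of Il13 was 0.58 (SE 0.25, interval 0.07 to 1.08), a 1.49-fold difference, above the Control mean in 9 of 10 mice. By limma the adjusted p was 0.0721, and by the methods' test 0.222. By an exact permutation test of each gene it was 0.0474. Without PAT3 replicate 3, the lowest of its group, limma gave 0.0319. With the size factor as a covariate the change was 0.49 (adjusted p = 0.00904), with the T cell marker mean it was 1.07 (adjusted p = 0.176), and without the 3 shallowest samples 0.49 (adjusted p = 0.0555). Whether Il13 differed therefore depended on the test and the covariate.

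Il4, the cytokine that directs Th2 differentiation and the switch to IgE, gave 5 to 17 counts in Control, 6 to 14 in PAT1 and 5 to 15 in PAT3. Median counts were 9, 10 and 9, and the ranges nearly coincided. The log2 change was 0.47 (SE 0.30, adjusted p = 0.32) in PAT1 and 0.08 (SE 0.28, interval -0.49 to 0.65, adjusted p = 0.833) in PAT3.

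Il9, a cytokine of mast cell and goblet cell responses, gave 6 to 13 counts in Control, 7 to 11 in PAT1 and 3 to 13 in PAT3. Its lowest log2 value, 1.29, was that of PAT3 replicate 6 with 3 counts. The change was 0.45 (SE 0.32, adjusted p = 0.383) in PAT1 and -0.32 (SE 0.30, adjusted p = 0.43) in PAT3. It was the only member with opposite signs in the regimens besides Tslp and Gpr44.

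Il25, the tuft cell alarmin, gave 6 to 13 counts in Control, 5 to 14 in PAT1 and 5 to 13 in PAT3. On the log2 scale 5 of the 7 Control values lay between 2.30 and 2.65, and 9 of 10 PAT3 values lay between 2.88 and 3.54. PAT3 replicate 4, at 2.19, was below all of the Control values. The change was 0.43 (SE 0.28, interval -0.14 to 1.01, adjusted p = 0.33) in PAT1 and 0.39 (SE 0.26, interval -0.14 to 0.92, adjusted p = 0.259) in PAT3.

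**Figure D3:**
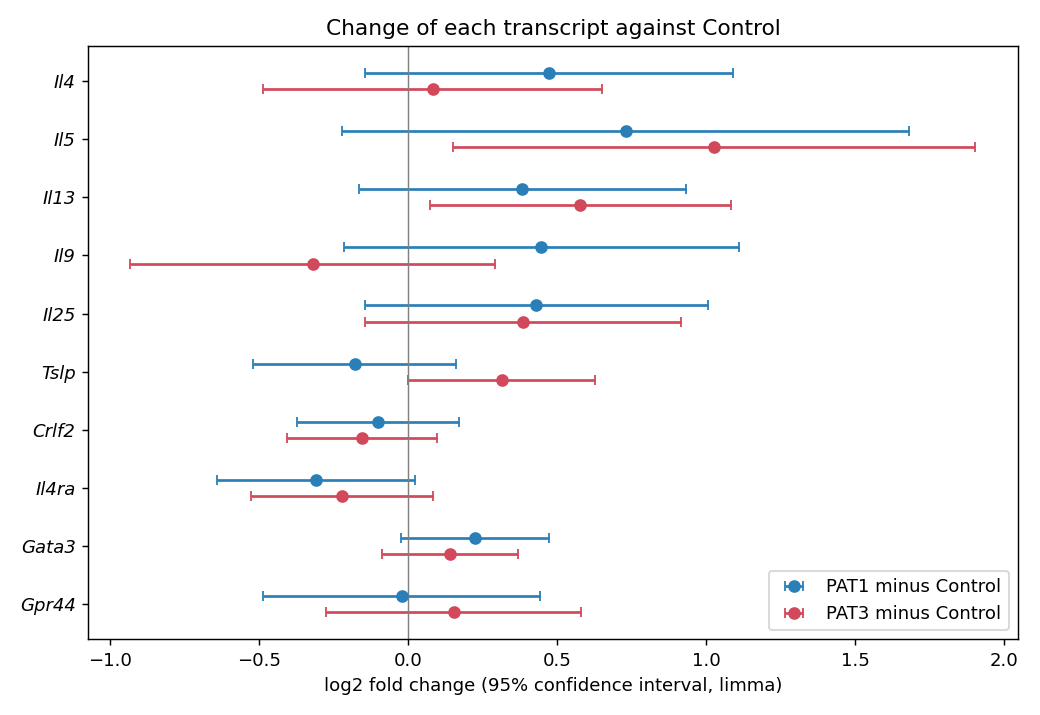
Log2 fold change of each transcript against Control (horizontal axis) in PAT1 and PAT3, with 95% confidence intervals from limma. Intervals of the 5 cytokines are wider than those of Crlf2, Il4ra and Gata3, and only those of Il5, Il13 and Tslp in PAT3 lie above 0.

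Gata3 was measured at about 100 counts per sample and with the smallest spread of the 10 members, 0.18 on the log2 scale. Its values ran from 6.16 to 6.58 (median 6.49) in Control, from 6.34 to 6.95 (median 6.70) in PAT1 and from 6.29 to 6.87 (median 6.56) in PAT3. Above the highest Control mouse lay 4 of 7 PAT1 mice and 4 of 10 PAT3 mice. The change was 0.23 (SE 0.12, interval -0.02 to 0.47, adjusted p = 0.21) in PAT1 and 0.14 (SE 0.11, interval -0.09 to 0.37, adjusted p = 0.345) in PAT3, and both signs held under all alternatives tried. On the linear scale the intervals reached up to 1.39-fold in PAT1 and 1.29-fold in PAT3.

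Gata3 is also a T cell gene, and the mean of the T cell marker transcripts was lower in both groups. The mean of 12 T cell markers ran from 6.16 to 6.36 in Control, from 5.28 to 6.32 in PAT1 and from 4.77 to 5.75 in PAT3 on the log2 scale. It differed from Control by -0.43 in PAT1 (exact permutation test, adjusted p = 0.0345) and -1.02 in PAT3 (adjusted p = 0.000411), and in PAT1 re-centring or leaving out Control replicate 1, 2, 3, 5, 6 or 7 ended the call. Of the 12 markers, 3 were called lower in PAT1 and 10 in PAT3. Among all genes, 18.5% and 31.8% were called in either direction. None of the 12 markers was at 0 counts in any sample. The 10 B cell markers averaged 5.23 in Control, 5.96 in PAT1 (from 4.43 to 8.51) and 4.61 in PAT3, with differences of 0.73 (adjusted p = 0.289) and -0.63 (adjusted p = 0.0345), and re-centring or leaving out Control replicate 1 or 5 or PAT3 replicate 4, 6, 9 or 10 ended the PAT3 call. The 6 myeloid markers of the table differed by -0.32 and -0.26 (adjusted p = 0.0185 for both), which re-centring also ended, and the 5 enterocyte markers by 0.39 and 0.32 (adjusted p = 0.225 and 0.289). Limma called 1 of the 6 myeloid markers lower in each PAT group. Of the 10 B cell markers it called 0 in PAT1 and 1, lower, in PAT3. The enterocyte mean covers opposite changes, since limma called 2 of its markers higher and 1 lower in each PAT group. Ccl25 rose by 1.135 in PAT1 and 0.809 in PAT3, whereas Ceacam1 changed by -1.256 and -1.052. The part of these changes in the values of the 10 transcripts was tested only as covariates, as given above and in the closing section.

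Il4ra encodes the chain shared by the IL-4 and IL-13 receptors and was the most counted member. Control values lay within 10.26 to 10.68, whereas PAT1 ran from 9.39 to 10.61 (median 10.30) and PAT3 from 9.70 to 10.54 (median 10.38). The low ends were PAT1 replicate 1 and PAT3 replicate 7, both shallow samples, with 270 and 484 counts. Against a Control mean of 10.52 ± 0.14 (SD, n = 7), PAT1 averaged 10.21 ± 0.42 (SD, n = 7) and PAT3 10.30 ± 0.25 (SD, n = 10). The change was -0.31 (SE 0.16, interval -0.64 to 0.02, adjusted p = 0.205) in PAT1 and -0.22 (SE 0.15, interval -0.53 to 0.09, adjusted p = 0.268) in PAT3, where 9 of 10 mice were below the Control mean. After quantile normalization both were called, with adjusted p = 0.0236 and 0.0355. The PAT1 change was smaller once the size factor entered the fit (-0.11, adjusted p = 0.541), without the 3 shallowest samples (-0.11, adjusted p = 0.492) and without PAT1 replicate 1 alone (-0.17, adjusted p = 0.401).

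Gpr44 is an older name of Ptgdr2, the prostaglandin D2 receptor of Th2 cells, ILC2, eosinophils and basophils. It gave 14 to 28 counts in Control, 4 to 35 in PAT1 and 13 to 32 in PAT3, and its log2 means were 4.27 ± 0.28, 4.25 ± 0.56 and 4.43 ± 0.41. The PAT1 group held both its lowest value, 3.31 in replicate 1, and its highest, 5.07 in replicate 6. The change was -0.02 (SE 0.23, interval -0.48 to 0.44, adjusted p = 0.982) in PAT1 and 0.15 (SE 0.21, interval -0.27 to 0.58, adjusted p = 0.587) in PAT3.

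To see whether mice given further courses differed from those given the first alone, PAT3 was compared with PAT1. The later courses also ended nearer to sampling, so that the number of courses and their timing cannot be told apart. Limma called 0 of the 10 members, against 4.2% of all genes, and the methods' test 0. At an unadjusted p under 0.05 there were 2 members, Tslp and Il9, against 28.5% of all genes. Tslp was described above. Il9 was lower in PAT3 by a difference of -0.77 (SE 0.30, interval -1.38 to -0.16, adjusted p = 0.0978), below the PAT1 mean in 9 of 10 mice. The highest PAT1 values were those of the shallow replicates 1 and 3. In males alone, which include both, the difference was -1.21 (adjusted p = 0.0119), and in females alone -0.16 (adjusted p = 0.892).

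Sex was examined next, as each group held both. Limma called 0 of the 10 members between females and males, against 0.366% of all genes, and 1 member, Gpr44, had an unadjusted p under 0.05, against 11.7%. Gpr44 was higher in females by 0.51 (interval 0.22 to 0.81, p = 0.0015 and adjusted p = 0.117 by limma). Its female and male means were 4.47 and 4.13 in Control, 4.58 and 4.01 in PAT1, and 4.67 and 4.07 in PAT3. Females were thus higher in each group, and in PAT3 the 6 females lay between 4.53 and 4.85 while the 4 males ran from 3.57 to 4.59. Without PAT1 replicate 7, the lowest female, the adjusted p was 0.0367.

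For an interaction of PAT with sex, both terms were tested together by limma's F-test. Limma called 0 members, against 0.183% of all genes, and Il13 had an unadjusted p under 0.05 (p = 0.0177, adjusted p = 0.197), against 18.3%. Il13 averaged 3.56 in Control, 4.32 in PAT1 and 3.82 in PAT3 males, and 3.69, 3.58 and 4.45 in females. The higher males of PAT1 and the higher females of PAT3 included the 3 shallowest samples.

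The wider pathway was described by 47 genes of the panel from 5 lists. In PAT1, 9 of them (19.1%) were called, 2 higher and 7 lower, and in PAT3, 16 (34.0%), 5 higher and 11 lower. These shares were close to the 18.5% and 31.8% of all genes. Limma called 0 of the 47 between PAT3 and PAT1. Both comparisons used the same Control mice. The T cell marker mean did not overlap between Control and PAT3, and with it as a covariate Tbx21 alone of the genes called in PAT3 kept its call (-0.93, adjusted p = 0.0422).

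**Figure D4:**
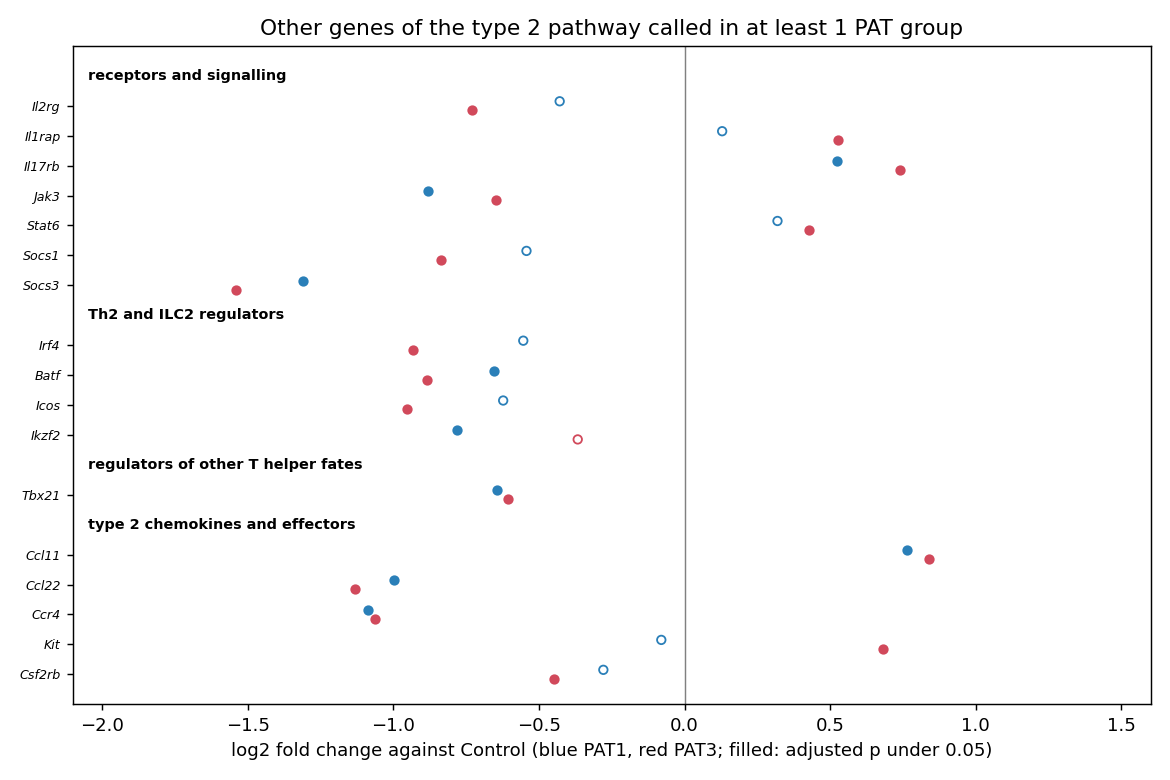
Log2 fold change against Control (horizontal axis) in PAT1 (blue) and PAT3 (red) of the pathway genes called in at least 1 of these groups, by list, with filled points for an adjusted p under 0.05. Il17rb and Ccl11 lie to the right in both groups, and Socs3, Ccl22 and Ccr4 lie farthest to the left.

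Among 16 receptor and signalling genes, the receptor chain for Il25 was higher. From a Control mean of 5.90 ± 0.19 (SD, n = 7), Il17rb reached 6.42 ± 0.27 in 7 PAT1 mice and 6.64 ± 0.18 in 10 PAT3 mice. It rose by 0.53 (SE 0.13, adjusted p = 0.00501) and 0.74 (SE 0.12, adjusted p = 3.62e-05), with every PAT mouse above the Control mean. Socs3, an inhibitor of cytokine signalling, fell in both groups (-1.31, adjusted p = 0.000203 and -1.54, adjusted p = 1.65e-06). So did Jak3, the kinase of the common gamma chain (-0.88, adjusted p = 0.0153 and -0.65, adjusted p = 0.04). In PAT3, Socs1 (-0.84, adjusted p = 0.000877) and Il2rg, the common gamma chain itself (-0.73, adjusted p = 0.00365), also fell. With the T cell marker mean as a covariate these changes were -0.43 (adjusted p = 0.519) for Socs1 and -0.14 (adjusted p = 0.847) for Il2rg, whereas in PAT3 Il17rb was at 0.62 (adjusted p = 0.109) and Socs3 at -1.25 (adjusted p = 0.0524). The methods' test called Jak3 in neither group (adjusted p = 0.0663 and 0.128), and its PAT1 change was -0.57 (adjusted p = 0.0554) with the size factor and -0.46 (adjusted p = 0.0452) without the 3 shallowest samples.

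Named after their values were seen, the remaining calls of that list were rises in PAT3 of Stat6, the transcription factor downstream of Il4ra (0.43, adjusted p = 0.0197), and Il1rap, the accessory chain of the IL-33 receptor (0.53, adjusted p = 0.0327). The other 9 genes of the list, among them Il33, its receptor Il1rl1 and Il13ra1, were called in neither group. Leaving out single samples ended the PAT3 call of Jak3 in 11 of 24 cases and that of Il1rap in 6 of 24, with adjusted p up to 0.0801 and 0.0667. With the T cell marker mean as a covariate, Stat6 turned to -0.05 (adjusted p = 0.938) and Il1rap to -0.34 (adjusted p = 0.553), and the methods' test did not call Il1rap (adjusted p = 0.0934).

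Of 12 regulators of Th2 cells and ILC2 in the table, 2 fell in PAT1 and 3 in PAT3, and none rose, shares below the 18.5% and 31.8% of all genes. Batf, a transcription factor of activated lymphocytes, fell in both groups (-0.65, adjusted p = 0.0342 and -0.89, adjusted p = 0.00154). Irf4, its partner (-0.93, adjusted p = 0.00275), and the costimulator Icos (-0.95, adjusted p = 0.00733) fell in PAT3, and Ikzf2 fell in PAT1 (-0.78, adjusted p = 0.0187). These genes are also expressed by other T cells, whose markers were lower too. As Control and PAT3 did not overlap in the T cell marker mean, it cannot be told apart from treatment there. The cause of these falls was not tested. With the T cell marker mean as a covariate, the PAT3 changes of Irf4, Batf and Icos were -0.03, -0.31 and 0.06, with adjusted p between 0.671 and 0.98. In PAT1, Batf was then at -0.41 (adjusted p = 0.233) and Ikzf2 at -1.05 (adjusted p = 0.00518), farther from 0 than without the covariate. The methods' test called neither in PAT1 (adjusted p = 0.107 and 0.071). The PAT1 call of Batf ended in 8 of 24 cases when 1 sample was left out (adjusted p up to 0.0729), and that of Ikzf2 without PAT1 replicate 2 (0.0523).

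Of 7 regulators of other T helper fates, Tbx21, the Th1 factor that opposes Gata3, fell in both groups (-0.65, adjusted p = 0.00422 and -0.61, adjusted p = 0.0023). Re-centring ended both calls (adjusted p = 0.0659 and 0.0611). Foxp3 and Bcl6, the factors of regulatory and follicular helper T cells, were called in neither group.

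The 11 chemokines, chemokine receptors and effectors in the table did not move one way. Ccl11, or eotaxin, which attracts eosinophils, was at 8.09 ± 0.34 (SD, n = 7) in Control and rose to 8.85 ± 0.44 (SD, n = 7) in PAT1 and to 8.92 ± 0.39 (SD, n = 10) in PAT3. Its changes were 0.77 (SE 0.21, adjusted p = 0.00902) and 0.84 (SE 0.19, adjusted p = 0.00154), with every PAT mouse above the Control mean. Ccl22, a dendritic cell chemokine, fell (-0.997, adjusted p = 0.00433 and -1.13, adjusted p = 0.000385), and so did its receptor Ccr4, which Th2 and regulatory T cells carry (-1.09, adjusted p = 0.0124 and -1.06, adjusted p = 0.00517). Ccr4 was itself scarce, with a mean of 9.42 counts, and its PAT1 call ended with the methods' test (adjusted p = 0.0571) and without the 3 shallowest samples (0.0648).

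In PAT3, Kit, the stem cell factor receptor, rose (0.68, adjusted p = 0.0447) and Csf2rb, the common chain of the IL-5 receptor, fell (-0.45, adjusted p = 0.0435). Both calls were close to the threshold and ended when single samples were left out, in 15 and 10 of 24 cases, with adjusted p up to 0.0979 and 0.111. The methods' test called neither (adjusted p = 0.142 and 0.109), and with the T cell marker mean as a covariate they were -0.10 (adjusted p = 0.938) and -0.055 (adjusted p = 0.949). Ccr3, the eotaxin receptor, and Fcer1a, the IgE receptor chain, were not called in either group. Of the 8 genes in the tuft and goblet cell list, only Itln1 was in the table. It was called in neither group, and 1 gene does not measure tuft or goblet cells.

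For the 5 members of 20 or more counts, the genes with the most similar pattern over the 24 samples were found by Spearman correlation, given as a description since all values share the samples and their size factors. Those of Tslp were Cd109 (rho = 0.54), Pparg (0.54) and Il6ra (0.51), and those of Gpr44 were Tnfrsf14 (0.62), Abcf1 (0.56) and Tyk2 (0.54). Correlations were higher for Crlf2, Il4ra and Gata3, the members with the most counts, but did not otherwise follow the order of counts. Crlf2 was most like Card9 (0.80), Abcb10 (0.74) and Prdm1 (0.68), Il4ra most like Tnfaip3 (0.79), Nfkbiz (0.76) and Pigr (0.75), and Gata3 most like Cdkn1a (0.74), Cd82 (0.73) and Ifngr2 (0.70).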

How the data were processed

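Ileal expression of 547 genes was measured with the nCounter mouse immunology panel in 24 mice grouped by the sample labels. The authors normalized the counts with DESeq2 (version not given in the sources used here) and deposited log2 values. Dividing the antilogs by the smallest step of each sample recovered the counts, and 100% of 13109 values above 0 counts came out whole at a tolerance of 0.01 counts. A count of 0 was listed as 0 (19 values in 9 genes). Whether background was subtracted is not given in the sources used here. Recovered totals ranged from 171671 to 782392 counts, which left counts of scarce genes imprecise. Intervals on counts cover counting error only. RNA was extracted with TRIzol and a column per the labels, and with a Qiagen kit per the methods. Replicate numbers are only names and do not pair mice.

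One limma fit (version 3.58.1, lmFit and eBayes, R 4.3.3) over all 24 samples, without covariates, filter or pseudocount, gave the F-test and all contrasts, adjusted by Benjamini-Hochberg over 547 genes at 0.05. Sex was tested with treatment as a covariate and its interaction with treatment in a fit of 6 means. Mice were treated as independent. The fit was tested on simulated data. Single values were compared by two-sided exact permutation tests.

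All 10 members were named. From each pathway list, up to 5 genes called against Control were named by smallest adjusted p, and for members of 20 or more counts the 3 genes with the highest Spearman rho. A gene of these lists is not reported here. Members and lists were chosen with earlier results of these data known. Promoters came from RefSeq (GRCm38.p6), in which 8 of 10 members had an entry and Il25 and Tslp did not.

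Alternatives were the methods' test (aov and TukeyHSD), the exact permutation test, sex, size factor, T cell or B cell marker mean as a covariate, re-centring on the median, quantile normalization, voom, sample weights, addition of 1 or 8 normalized counts, a filter at a mean of 20 counts, each sex alone, each sample left out, and thresholds of 10 and 50 counts, or the median in place of the mean count, for near background. Leaving out the 3 shallowest samples, and re-centring and left-out samples for the marker lists, were chosen after seeing the data.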

Additional observations from a re-analysis of the deposited data

Results flagged for a closer look

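Each member was examined in each group for a single sample far from the others, by the gap to the nearest value over the whole range. Of 30 groups, 2 held such a sample. Chance gives about 1 in 20 as the nominal rate of such a rule, which was not checked for transcripts with few counts. Tslp in PAT1 replicate 1, the shallowest sample, was 4.12 against a group median of 4.89, from 7 counts, with a gap of 0.635 of the range. Il25 in PAT3 replicate 4 was 2.19 against a median of 3.26, from 5 counts, with a gap of 0.509 of the range. The cause of either value was not tested.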

How the results depend on the processing

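Counts at this depth limit the 5 scarce cytokines, 3 of which (Il5, Il9 and Il25) stayed near background at a threshold of 10 counts, while at 50 counts 7 members did, Tslp and Gpr44 besides the 5. Members differing among the groups numbered 1 (Tslp), but 2 with the size factor as a covariate (Il13 and Tslp), 3 after quantile normalization (Il13, Tslp and Il4ra), and 0 with the T cell or B cell marker mean as a covariate, in females alone or without the 3 shallowest samples. Sample weights and males alone gave 1, which was Il13 and Il9 in place of Tslp. With each sample left out the number ran from 0 to 2, the highest without PAT1 replicate 7 (Il9 and Tslp). Against Control, PAT1 gave 1 (Il4ra) after quantile normalization, and PAT3 gave 1 (Il13) with the size factor, 3 (Il5, Il13 and Tslp) after re-centring, 4 (these and Il4ra) after quantile normalization, 2 (Il5 and Il13) with sample weights, and 0 to 1 with samples left out. PAT3 against PAT1 gave 1 after re-centring, quantile normalization or the filter (Tslp) and in males alone (Il9), and 0 to 1 with samples left out. Between the sexes, samples left out gave 0 to 1 (Gpr44).

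Pathway genes called in PAT1 were 5 by the methods' test, 5 in males and 3 in females, and those in PAT3 were 2 with the T cell marker mean, 25 after re-centring, 26 with sample weights and 5 in females. With samples left out they ran from 8 to 12 and from 12 to 20.

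Signs turned as follows. The PAT3 change of Il4 was -0.024 with the B cell marker mean, -0.103 with sample weights, -0.19 in males, -0.063 without the 3 shallowest samples, and -0.063 to 0.216 with samples left out. In females the PAT1 changes of Il9 and Il13 were -0.15 and -0.12, and Il13 was -0.026 with the size factor. In males the PAT3 changes of Il25, Il4ra and Gpr44 were -0.01, 0.012 and -0.061, and Gpr44 was -0.083 with the T cell marker mean. Re-centring gave Crlf2 0.043 in PAT1 and 0.037 in PAT3. Gpr44 in PAT1 was 0.04 (size factor), 0.052 (B cell marker mean), 0.12 (re-centred), 0.054 (voom), 0.11 (sample weights), 0.001 (8 counts added), 0.11 (females), 0.15 (3 shallowest samples left out), and -0.16 to 0.14 with samples left out. With the T cell marker mean, the PAT3 changes of Il1rap, Stat6, Icos and Kit were -0.34, -0.054, 0.057 and -0.097. The cause was not tested in any of these cases. Of 867 member values under these settings, 817 kept their sign and their side of the threshold. No paired analysis was possible because the labels give no replicate numbers that tie mice across groups.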
